A study of Mus musculus with 6 samples.

Results

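The genes described here encode 38 proteins of the unfolded protein response, the integrated stress response and the heat shock response. They were taken by symbol from a list that uses no threshold on their values. Members and lists were chosen with earlier results of these data known, so their shares beside those of all genes are descriptive. All 38 were found among the 25124 genes of the table, and 36 were high enough to be tested. They were measured by sequencing of poly(A) RNA from 3 M0 and 3 M1 libraries of RAW264.7, a macrophage line from mouse. M1 cells had been given lipopolysaccharide (LPS, a bacterial cell wall component) at 100 ng/ml and interferon-γ at 50 ng/ml, and M0 cells neither. Both groups carried a plasmid for the Cas9 nuclease but no guide RNA, being controls for a knockout of E4BP4, and grew in medium with 25 mM glucose. Whether the line is a single clone, and how long the treatment lasted, are not given in the sources used here, and the labels do not say that replicates were separate cultures. P-values therefore measure the spread between these libraries, which may be technical.

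Proteins that enter the endoplasmic reticulum (ER) fold there with the help of chaperones, and misfolded ones are sent back to the cytosol for degradation. A trio of sensors in the ER membrane, IRE1, PERK and ATF6, reads the folding load. IRE1 splices the mRNA of the transcription factor XBP1, ATF6 is cut into a transcription factor, and PERK phosphorylates the translation factor eIF2. Phosphorylated eIF2 slows protein synthesis but allows translation of ATF4, which drives genes of amino acid supply and stress. Other kinases reach the same point, so this arm is called the integrated stress response. In the cytosol, the factor HSF1 drives chaperones of the HSP70, HSP90 and HSP60 families. Splicing of Xbp1, cleavage of ATF6 and phosphorylation of eIF2 are not read by gene-level mRNA values.

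Between 15615639 and 20283180 reads per library fell in genes, and 1 TPM (reads scaled by transcript length and by library) of a transcript of 2000 bases stood for at least 26.5 reads. All 10 macrophage markers were at 1 TPM or more in every library, with summed levels of 3010 to 3237 TPM in M0 and 2783 to 2824 TPM in M1. The 26 markers of T, B, fibroblast, epithelial, endothelial and neutrophil lineages stayed under 1.06 TPM except S100a8, at up to 5.85 TPM. Nos2, Cxcl10, Il1b, Tnf, Irf1 and Gbp2, known targets of LPS or interferon-γ, summed to 48.5 to 51.0 TPM in M0 and 6567 to 6605 TPM in M1. The called genes at least 2-fold higher in M1 took 3.22% to 3.25% of all TPM in the M0 libraries and 18.0% to 18.1% in the M1 libraries. The median log2 change over the 11297 tested genes was -0.31 for TPM as deposited and 0.02 after rescaling, in which the TPM of each library is divided by its median-of-ratios factor. Changes of members and of other named genes are therefore given on both scales, and "rose" and "fell" refer to TPM unless rescaling is named. A change is called when its adjusted p is under 0.05 (limma on log2(TPM + 1), Benjamini-Hochberg over all tested genes).

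The arms of the stress response went different ways. Of the 36 tested members, 8 rose and 22 fell, beside 18.7% of all tested genes that rose and 61.5% that fell, so over the whole list the shares lay near those of all genes. After rescaling 15 were higher and 11 lower, beside 38.1% and 35.4% of all genes. The 8 that rose were 7 of the 8 integrated stress response genes and the ER ubiquitin ligase Syvn1. They were also higher after rescaling, but so were all 2111 genes that rose, so this adds no support. Of the 22 that fell, 11 were also lower after rescaling, beside 4002 of the 6944 genes that fell. A further 10 were no longer called, and Hspe1 was called in the opposite direction. So were 510 of the 6944 genes that fell (4.51% of all tested genes). All M1 libraries lay above all M0 libraries for 8 members and below them for 21, beside 19.6% and 61.8% of all tested genes. The authors' deposited table has 15 of the 36 tested members higher and 12 lower at an adjusted p under 0.05, beside 35.6% and 32.2% of the 10769 tested genes with a value there, so these shares too lay near those of all genes.

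**Figure D1:**
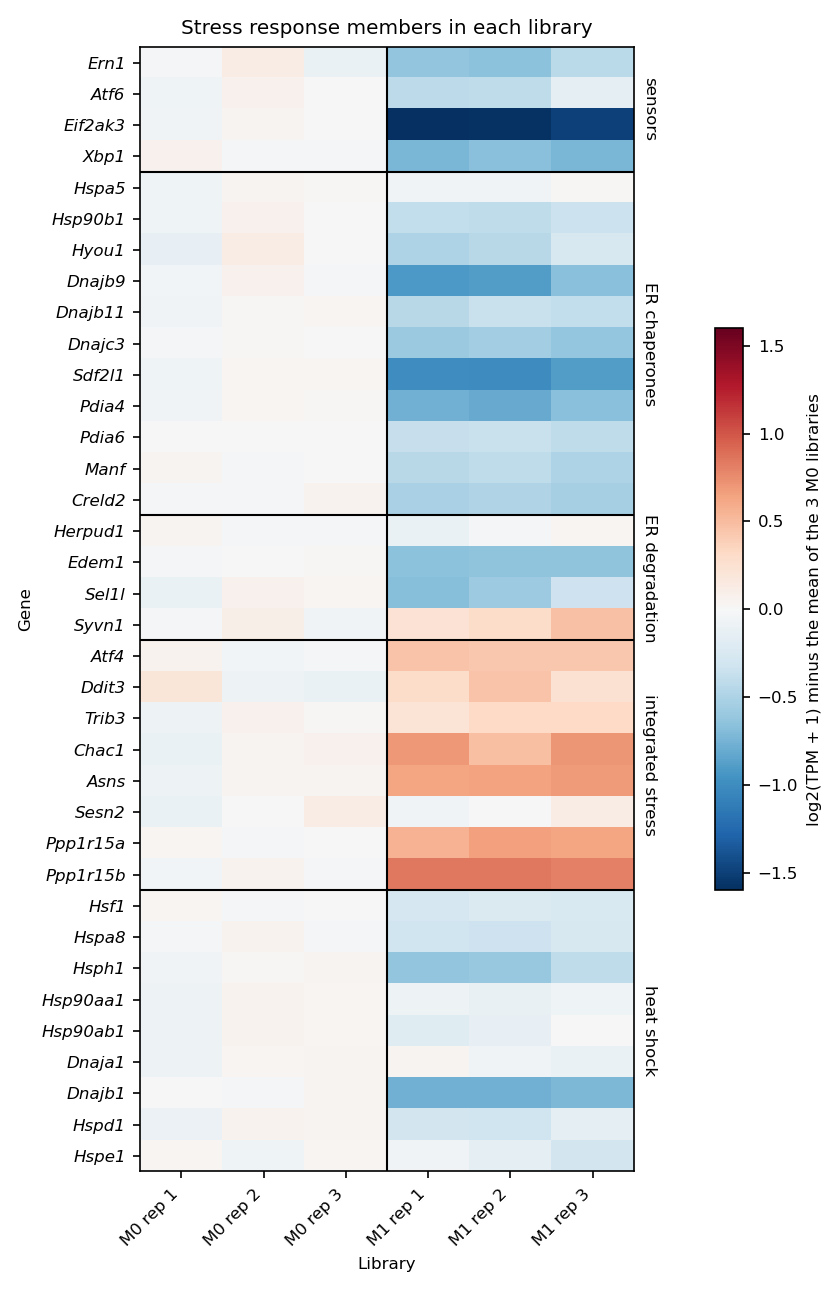
Heat map of the 36 tested members (rows, grouped by role) in the 6 libraries (columns), coloured by log2(TPM + 1) minus the mean of the 3 M0 libraries. The M1 columns are red for most integrated stress response genes and blue for the sensors and most ER chaperones, with Eif2ak3 the darkest blue.

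The sensors of the ER and their transcription factor had lower mRNA in M1. All 4 fell on the TPM scale, beside 61.5% of all genes, with a median log2 change of -0.64. After rescaling 3 were lower (median -0.32), beside 35.4% of all genes. Eif2ak3 (NM_010121, chromosome 6, 70844515 to 70905241, mm10), which encodes PERK, measured 11.8, 12.7 and 12.3 TPM in M0 and 3.32, 3.43 and 3.69 TPM in M1, each in replicate order 1 to 3 as in all such lists. The groups were far apart, and the fall of 3.52-fold was the largest of any tested member (log2 change -1.56, SE 0.067, adjusted p = 1.9e-09; -1.25 after rescaling, adjusted p = 2.0e-08, limma). These levels rested on 2426 reads over the M0 libraries and 768 over the M1 libraries. Of its exon bases, 485 lie opposite a gene of unknown coding status, Gm43292, which was not analysed here. Xbp1 (NM_001271730, chromosome 11, 5520641 to 5525993) measured 135, 125 and 126 TPM in M0 and 76.8, 80.6 and 76.9 TPM in M1, with every M1 library under every M0 library. It fell 1.65-fold (log2 change -0.71, SE 0.047, adjusted p = 7.4e-08, limma) and was also lower after rescaling (-0.35, adjusted p = 1.4e-04, limma). Reads of the spliced and unspliced forms of its mRNA are counted together.

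Ern1 (NM_023913, chromosome 11, 106397620 to 106487796), which encodes the α form of IRE1, was the least abundant sensor, with 4.60, 5.18 and 4.30 TPM in M0 and 2.67, 2.59 and 3.19 TPM in M1. It fell 1.67-fold without overlap between groups (log2 change -0.58, SE 0.089, adjusted p = 9.9e-05, limma), and the change after rescaling was smaller but called (-0.29, adjusted p = 0.0096, limma). Atf6 (NM_001081304, chromosome 1, 170704457 to 170867771) read 58.9, 64.6 and 61.4 TPM in M0 and 45.7, 46.2 and 55.6 TPM in M1, and the third M1 library lay closest to M0. Its fall (log2 change -0.33, SE 0.074, adjusted p = 0.0018, limma) was close to the median of all genes, and the rescaled change of 0.033 was not called (adjusted p = 0.66, limma). M1 replicate 3 gave the highest M1 value in 14 of the 22 members that fell and in 54.6% of all genes that fell. Without this library 8 members rose and 22 fell.

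Most of the integrated stress response genes rose. Of the 8 genes, 7 rose (87.5%) and none fell, beside 18.7% and 61.5% of all genes, with a median log2 change of 0.53. After rescaling all 8 were higher, beside 38.1% of all genes, with a median of 0.88. Every gene that rose on TPM was also higher after rescaling, so the second scale adds no support for the 7. Every M1 library lay above every M0 library for the 7, beside 19.6% of all tested genes. Summed over the 8 genes, the level was 574, 564 and 567 TPM in M0 and 808, 807 and 806 TPM in M1. Atf4 (NM_001287180, chromosome 15, 80255184 to 80257545), the transcription factor at the centre of this arm, made up most of that sum and measured 371, 349 and 355 TPM in M0 and 493, 486 and 483 TPM in M1. It rose 1.36-fold (log2 change 0.44, SE 0.043, adjusted p = 2.1e-06; 0.81 after rescaling, limma). Asns (NM_012055, chromosome 6, 7675165 to 7693209), asparagine synthetase and a standard ATF4 target, measured 82.6, 90.2 and 89.9 TPM in M0 and 137, 138 and 141 TPM in M1. Both groups were tight, and the rise was 1.58-fold (log2 change 0.66, SE 0.048, adjusted p = 1.7e-07; 1.02 after rescaling, limma).

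Both regulatory subunits that direct protein phosphatase 1 to eIF2, and so end the response, rose. Ppp1r15b (NM_133819, chromosome 1, 133131166 to 133139800), the constitutive subunit CReP, measured 44.8, 48.2 and 45.7 TPM in M0 and 83.4, 83.7 and 81.8 TPM in M1. It had the largest rise of any tested member, 1.79-fold (log2 change 0.83, SE 0.046, adjusted p = 1.7e-08; 1.19 after rescaling, limma). Another gene of unknown coding status, Gm26616, lies opposite 640 of its exon bases and was not analysed here. Ppp1r15a (NM_008654, chromosome 7, 45522917 to 45526268), the stress-inducible subunit GADD34, measured 10.5, 10.0 and 10.2 TPM in M0 and 15.6, 16.7 and 16.5 TPM in M1. It was less abundant than Ppp1r15b in both states and rose 1.59-fold (log2 change 0.62, SE 0.058, adjusted p = 1.6e-06; 0.95 after rescaling, limma). Levels of Chac1, which degrades glutathione, were 8.52, 9.57 and 9.79 TPM in M0 and 15.7, 13.4 and 15.8 TPM in M1. The groups did not overlap, and the rise was 1.61-fold (log2 change 0.63, SE 0.079, adjusted p = 1.8e-05; 0.96 after rescaling, limma).

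Ddit3, which encodes the pro-apoptotic factor CHOP, measured 19.2, 15.7 and 15.4 TPM in M0 and 20.6, 23.3 and 20.0 TPM in M1. The first M0 library stood close to the lowest M1 library, and the rise of 1.27-fold was among the smaller ones (log2 change 0.33, SE 0.087, adjusted p = 0.0044; 0.68 after rescaling, limma). The M0 libraries held 608 of its reads and the M1 libraries 861, and 68 of its exon bases lie under exons of Mars on the other strand, whose reads cannot be told apart if strand was not used in counting. Trib3, a pseudokinase induced by ATF4 and CHOP, rose 1.23-fold, from 26.6 ± 1.53 to 32.6 ± 1.35 TPM (mean ± SD, n = 3 here and below; log2 change 0.29, SE 0.058, adjusted p = 7.6e-04; 0.64 after rescaling, limma). Sesn2, which restrains the growth kinase complex mTORC1, was the only one of the 8 without a call on the TPM scale. Its values were 11.9, 12.8 and 14.0 TPM in M0 and 12.3, 13.0 and 14.1 TPM in M1, with groups that overlapped throughout (log2 change 0.025, 95% interval -0.14 to 0.19, adjusted p = 0.77; 0.36 after rescaling, adjusted p = 6.1e-04, limma).

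**Figure D2:**
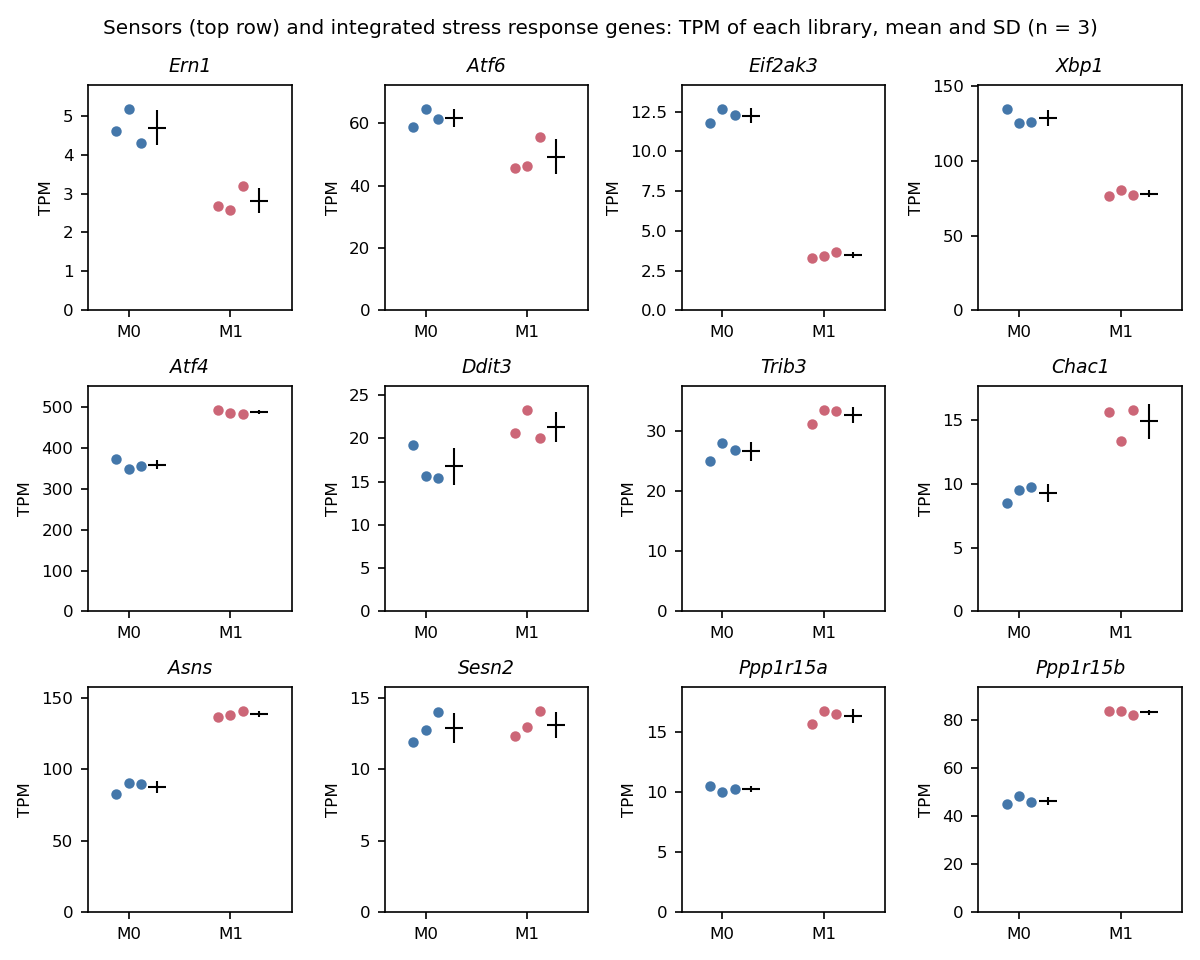
TPM (vertical axes, from 0) of the 4 sensor genes and the 8 integrated stress response genes in each library of M0 (blue) and M1 (red), with mean and SD (n = 3) in black. M1 points lie below M0 points in the 4 upper panels and above them in the 8 lower panels except for Sesn2.

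Promoter stretches are shown for the integrated stress response because Asns, Chac1 and Trib3 hold the letters of the C/EBP-ATF4 element, Asns 23 bases and Chac1 193 bases before the start. RefSeq promoters (GRCm38.p6, 250 bases before to 50 after the start of transcription) were found for 30 of the 38 members, 29 of them at the start of the transcript in the deposited table. The element was searched as TGATGNAA on both strands and was present in 3 of 7 integrated stress response promoters, those of Asns, Chac1 and Trib3, and in 3.97% of all 32851 promoters. In Trib3 it lies 15 bases into the transcript. The stretches run 5′ to 3′ along the gene, with the match in capitals; in Chac1 and Herpud1 it is on the other strand and reads as its reverse complement.
Asns, chr6:7693210-7693269, - strand: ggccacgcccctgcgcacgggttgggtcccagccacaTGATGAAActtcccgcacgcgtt
Chac1, chr2:119351022-119351081, + strand: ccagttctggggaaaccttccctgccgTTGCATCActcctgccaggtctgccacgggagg
Herpud1, chr8:94386289-94386348, + strand: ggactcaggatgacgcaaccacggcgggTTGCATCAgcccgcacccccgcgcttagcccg
The 3 genes of this arm with the letters rose, and so did Atf4, Ddit3 and Ppp1r15a, whose windows do not have them. Sesn2, whose window also lacks them, was not called on the TPM scale. Herpud1, the remaining member with the letters, was not called on the TPM scale.

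Most ER chaperones and folding factors fell on the TPM scale. Of the 11 genes, 10 fell (90.9%) and none rose (median log2 change -0.45), beside 61.5% and 18.7% of all tested genes. After rescaling 5 were lower (45.5%), 1 was higher (9.09%) and 5 were not called (median -0.08). The shares of all genes on that scale were 35.4% lower and 38.1% higher. Their summed level was 3300, 3492 and 3435 TPM in M0 and 2692, 2700 and 2773 TPM in M1. Hspa5 (NM_001163434, chromosome 2, 34772090 to 34776529), the HSP70 of the ER known as BiP and the usual readout of ER stress, was the exception. It measured 929.7, 1009 and 992 TPM in M0 and 941, 938 and 985 TPM in M1, about as high in both states (log2 change -0.033, 95% interval -0.14 to 0.072, adjusted p = 0.54, limma). After rescaling it was higher in M1 (0.33, adjusted p = 1.2e-04, limma), and its log2 fold change in the authors' deposited table was 0.33. Hsp90b1 (NM_011631, chromosome 10, 86690841 to 86705444), the HSP90 of the ER known as GRP94, measured 872, 958 and 918 TPM in M0 and 695, 689 and 722 TPM in M1. The groups did not overlap, but the fall (log2 change -0.38, SE 0.048, adjusted p = 1.8e-05, limma) was close to the shift of all genes, and after rescaling -0.019 was not called (adjusted p = 0.73, limma). The pseudogene 1810014B01Rik, at means of 3.90 and 2.11 TPM, lies opposite 415 of its exon bases.

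The 5 chaperones lower on both scales were Sdf2l1, Dnajb9, Pdia4, Dnajc3 and Creld2. Sdf2l1 (NM_022324, chromosome 16, 17130138 to 17132383), which joins BiP and its DNAJ partners in a folding complex, measured 141, 151 and 151 TPM in M0 and 73.4, 73.3 and 79.3 TPM in M1. It had the largest fall of this group, 1.96-fold (log2 change -0.96, SE 0.050, adjusted p = 8.8e-09; -0.60 after rescaling, adjusted p = 5.4e-07, limma). Dnajb9 (ERdj4), a DNAJ cofactor of BiP, had 17.2, 18.6 and 17.6 TPM in M0 and 8.97, 9.12 and 10.9 TPM in M1. All M1 values were below the M0 values, a fall of 1.84-fold (-0.82, and -0.48 after rescaling). Pdia4, a disulfide isomerase, went from 183 ± 5.95 to 109 ± 5.57 TPM (-0.75 and -0.38). Dnajc3, known as p58IPK and an inhibitor of eIF2 kinases, went from 35.3 ± 0.664 to 23.1 ± 0.598 TPM (-0.59 and -0.24). Creld2, an ER-resident protein induced by stress, went from 105 ± 3.84 to 73.6 ± 1.26 TPM (-0.51 and -0.15), and its call after rescaling had an adjusted p of 0.012 (0.051 without M0 replicate 3, limma). For Dnajb9, Pdia4 and Dnajc3 the adjusted p after rescaling was 9.1e-05, 2.1e-05 and 8.9e-04 (limma).

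Hyou1, Dnajb11, Pdia6 and Manf fell on the TPM scale only. Hyou1 is a large HSP70 relative and nucleotide exchange factor of the ER, and its log2 changes were -0.40 and -0.036 before and after rescaling. Dnajb11, a DNAJ cofactor known as ERdj3, had -0.40 and -0.037. Pdia6, a disulfide isomerase that also acts on IRE1, had -0.38 and -0.013, and its M0 libraries lay between 473 and 476 TPM. Manf, a secreted ER protein with roles in cell survival, had -0.45 and -0.084. Adjusted p-values for these 4 were 5.9e-04, 8.8e-06, 5.7e-06 and 2.7e-06 on the TPM scale and 0.64, 0.44, 0.82 and 0.18 after rescaling (limma). Of Manf's exon bases, 146 are shared with Dcaf1 on the other strand.

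The ER stress element, the paired site for the factor NF-Y and for ATF6 or XBP1, was looked for in the same promoters as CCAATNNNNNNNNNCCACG on both strands. It was present in 5 of 9 chaperone promoters, those of Hspa5, Hsp90b1, Dnajc3, Pdia6 and Creld2, in 1 of 4 promoters of the degradation genes, that of Syvn1, and in no promoter of the other members. Only 39 of the 32851 promoters, 0.119%, held it. The Hspa5 promoter is shown from base -250 to -1 and the others over 60 bases around the match, because these genes share the letters and yet did not move alike. In Creld2, and in the stretch of Hsp90b1 that starts at base -130, the match is on the other strand and reads as its reverse complement. The Syvn1 window belongs to a start 569 bases from that of the deposited transcript.
Hspa5, chr2:34771840-34772089, + strand: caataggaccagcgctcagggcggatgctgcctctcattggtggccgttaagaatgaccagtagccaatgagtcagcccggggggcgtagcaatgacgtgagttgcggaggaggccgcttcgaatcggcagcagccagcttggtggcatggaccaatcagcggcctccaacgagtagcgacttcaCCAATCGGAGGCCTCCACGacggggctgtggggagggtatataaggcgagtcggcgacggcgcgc
Hsp90b1, chr10:86705635-86705694, - strand: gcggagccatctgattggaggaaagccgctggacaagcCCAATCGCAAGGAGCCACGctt
Hsp90b1, chr10:86705515-86705574, - strand: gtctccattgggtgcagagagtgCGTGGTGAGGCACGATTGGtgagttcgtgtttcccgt
Dnajc3, chr14:118937802-118937861, + strand: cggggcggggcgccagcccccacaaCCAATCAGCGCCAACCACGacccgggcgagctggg
Pdia6, chr12:17266469-17266528, + strand: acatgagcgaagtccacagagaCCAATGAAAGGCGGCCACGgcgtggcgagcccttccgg
Creld2, chr15:88819496-88819555, + strand: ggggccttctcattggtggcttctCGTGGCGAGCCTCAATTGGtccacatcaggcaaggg
Syvn1, chr19:6046506-6046565, + strand: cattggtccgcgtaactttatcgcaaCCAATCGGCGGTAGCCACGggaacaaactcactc
Of the 6 genes with the element, Syvn1 rose on both scales, Dnajc3 and Creld2 were lower on both, Hsp90b1 and Pdia6 were lower on the TPM scale only, and Hspa5 was higher after rescaling only. Sdf2l1, Pdia4 and Dnajb9, with the largest falls of the chaperones, did not hold these letters in the window. The shorter core GACGTG, searched on both strands, was in the windows of Hspa5, Pdia6 and Ddit3 and in 6.38% of all promoters.

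Of the 4 ER-associated degradation genes, 1 rose and 2 fell (25% and 50%), beside 18.7% and 61.5% of all tested genes. After rescaling 2 were higher and 1 lower (50% and 25%), beside 38.1% and 35.4%. With 4 genes such shares are coarse, and no difference from all genes is read from them. Syvn1 (NM_001164709, chromosome 19, 6047145 to 6053718), the ubiquitin ligase HRD1 that marks misfolded ER proteins, measured 20.0, 21.8 and 19.6 TPM in M0 and 24.2, 25.3 and 28.6 TPM in M1. It was above M0 in every M1 library, and the rise was 1.27-fold (log2 change 0.33, SE 0.070, adjusted p = 0.001; 0.68 after rescaling, adjusted p = 3.5e-06, limma). Exons of Mrpl49 on the other strand cover 91 of its exon bases, and Mrpl49 had means of 38.6 TPM in M0 and 21.7 TPM in M1. Sel1l (NM_011344, chromosome 12, 91806043 to 91849157), the partner that stabilises HRD1, moved the other way, with 28.6, 32.4 and 31.5 TPM in M0 and 18.8, 20.2 and 24.3 TPM in M1. The groups did not overlap, although the third M1 library was near M0 (log2 change -0.53, SE 0.087, adjusted p = 1.8e-04, limma). After rescaling Sel1l was not called (-0.18, adjusted p = 0.057, limma), while in the authors' deposited table its log2 fold change was -0.19 with an adjusted p of 0.026. The rescaled change was called without M0 replicate 1 or M1 replicate 3 (adjusted p = 0.043 and 0.0016, limma).

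Edem1 (NM_138677, chromosome 6, 108828641 to 108859356), a mannosidase-like protein that extracts misfolded glycoproteins, measured 78.3, 79.4 and 80.3 TPM in M0 and 49.8, 50.5 and 50.5 TPM in M1. Replicates were close together in either group, and it fell 1.58-fold (log2 change -0.65, SE 0.042, adjusted p = 6.7e-08; -0.29 after rescaling, adjusted p = 7.7e-05, limma). Herpud1 (NM_022331, chromosome 8, 94386429 to 94395371), which organises the degradation complex, measured 27.0, 25.9 and 25.7 TPM in M0 and 24.2, 25.7 and 26.8 TPM in M1, and the groups overlapped (log2 change -0.036, 95% interval -0.16 to 0.086, adjusted p = 0.56, limma). After rescaling it was higher (0.32, adjusted p = 2.9e-04, limma). Herpud1 carries the ER stress element II, searched on both strands as ATTGG, any 1 base and CCACG, which 12 of the 32851 promoters hold, Dnajb11 among them. The stretch is shown since this gene also holds the C/EBP-ATF4 letters above.
Herpud1, chr8:94386354-94386413, + strand: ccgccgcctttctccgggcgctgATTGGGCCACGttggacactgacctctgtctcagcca

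**Figure D3:**
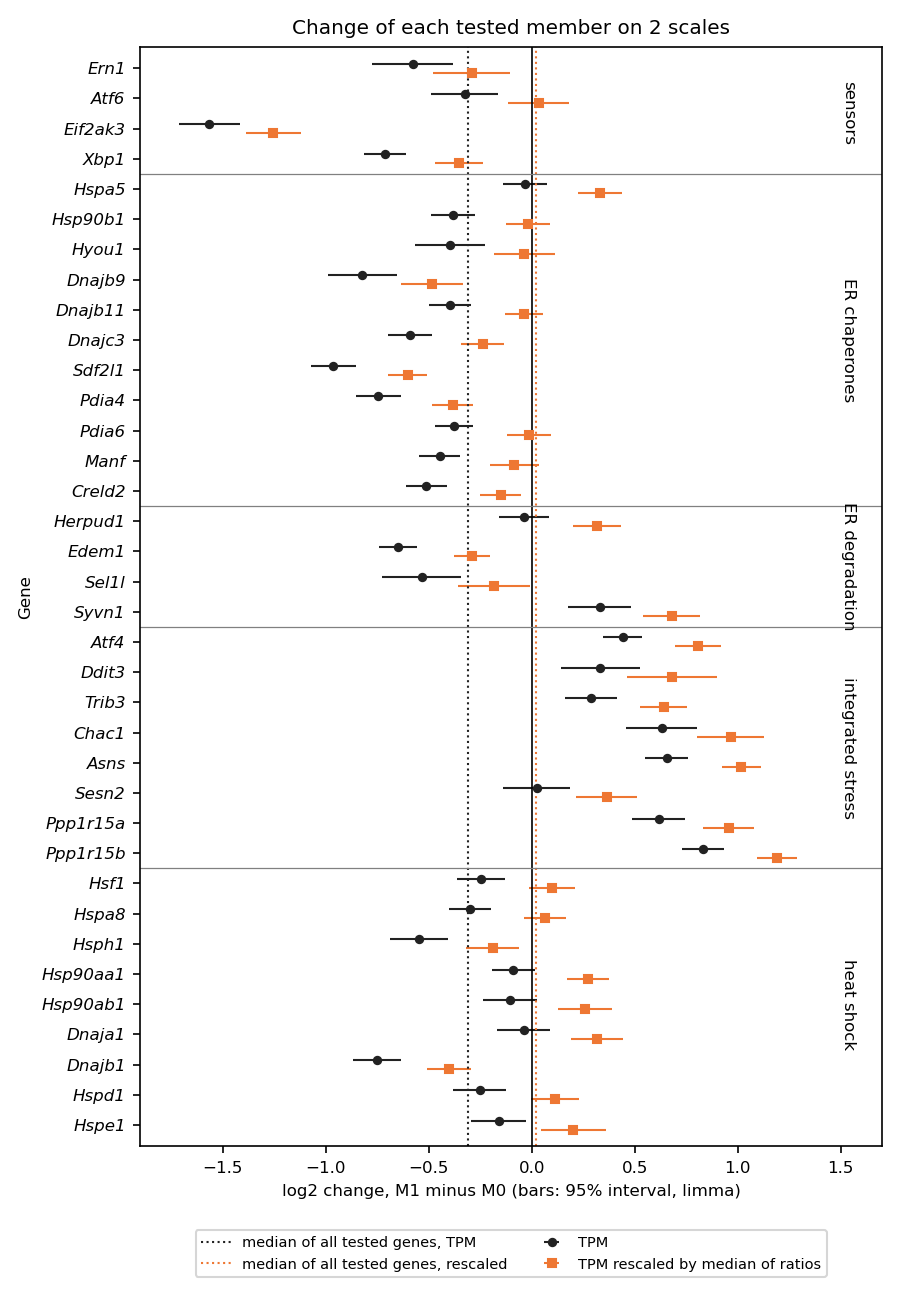
Log2 change from M0 to M1 (horizontal axis) of each tested member on the TPM scale (black circles) and after median-of-ratios rescaling (orange squares), with 95% intervals from limma. Dotted lines mark the medians of all tested genes, -0.31 and 0.02, and every member sits further right after rescaling.

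None of the tested heat shock genes was called higher on the TPM scale, beside 18.7% of all tested genes. Of the 9 tested genes of this group 6 fell and 3 were not called (median log2 change -0.25), and after rescaling 4 were higher and 2 lower (median 0.11). The shares that fell, 66.7% beside 61.5% of all genes, and that were higher after rescaling, 44.4% beside 38.1%, lay near those of all genes. The share that was lower after rescaling was 22.2%, beside 35.4% of all genes. With 9 genes such shares are coarse. Dnajb1 (NM_018808, chromosome 8, 83608175 to 83612653), the HSP40 cofactor of cytosolic HSP70, measured 27.7, 27.2 and 28.7 TPM in M0 and 15.9, 16.0 and 16.6 TPM in M1. It fell 1.73-fold with replicates close together (log2 change -0.75, SE 0.052, adjusted p = 1.2e-07; -0.40 after rescaling, adjusted p = 2.5e-05, limma). Hsph1 (NM_001347534, chromosome 5, 149616845 to 149636336), the exchange factor HSP110, measured 54.5, 57.2 and 58.4 TPM in M0 and 36.1, 37.1 and 42.7 TPM in M1. It also fell without overlap (log2 change -0.55, SE 0.064, adjusted p = 1.0e-05, limma) and was lower after rescaling (-0.19, adjusted p = 0.012, and 0.051 without M1 replicate 1, limma). Hsf1, the transcription factor of the response, went from 19.4 ± 0.402 to 16.2 ± 0.244 TPM (log2 change -0.25, SE 0.053, adjusted p = 0.0011, limma), and after rescaling its sign turned without a call (0.098, adjusted p = 0.099, limma).

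Among the most abundant heat shock genes, Hspa8 fell and both cytosolic HSP90 genes were not called. Hsp90ab1, the constitutive cytosolic HSP90, was the most abundant member, with 1068, 1175 and 1159 TPM in M0 and 989, 1034 and 1138 TPM in M1. Its groups overlapped, and no change was called on the TPM scale (95% interval -0.24 to 0.025, adjusted p = 0.12, limma). Hsp90aa1, the inducible HSP90, had 357, 391 and 384 TPM in M0 and 356, 347 and 359.5 TPM in M1, again with overlap (95% interval -0.19 to 0.015, adjusted p = 0.1, limma). Hsp90ab1 was called lower without M0 replicate 1 or M1 replicate 3 (adjusted p = 0.038 and 0.0091), and Hsp90aa1 without M0 replicate 1 (adjusted p = 0.022, limma). Both were higher after rescaling (0.26 and 0.27, adjusted p = 0.0025 and 3.2e-04, limma). Hspa8, the constitutive HSP70, went from 514 ± 17.2 to 417 ± 12.5 TPM (log2 change -0.30, SE 0.046, adjusted p = 8.5e-05, limma), and after rescaling 0.064 was not called. Dnaja1, another HSP40, had 35.0 ± 1.82 and 34.1 ± 1.86 TPM in M0 and M1 (log2 change -0.038, 95% interval -0.17 to 0.090; 0.32 after rescaling, adjusted p = 5.6e-04, limma). Smu1 on the other strand covers 608 of its exon bases at means of 39.3 and 38.2 TPM, which leaves the level of Dnaja1 uncertain.

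Hspa1a and Hspa1b, the inducible HSP70 genes and the classic targets of heat shock, were hardly detected. Hspa1a had 1, 0 and 1 reads in M0 and 1, 0 and 0 in M1, and Hspa1b had 9, 10 and 9 reads in M0 and 12, 11 and 17 in M1. Neither reached the level for testing, and Hspa1b stood at 0.227 ± 0.0202 and 0.293 ± 0.0902 TPM. The copies are close, with 58.8% of the 50-base windows of the Hspa1a transcript found unchanged in Hspa1b. Reads that match both may have been left out or split, so these levels are uncertain. Hspd1 and Hspe1, the mitochondrial HSP60 and its partner HSP10, lie head to head on chromosome 1. Hspd1 (NM_010477, chromosome 1, 55077834 to 55087932) measured 238, 262 and 260.0 TPM in M0 and 206, 203 and 229 TPM in M1, and Hspe1 (NM_008303, chromosome 1, 55088148 to 55091317) 155, 145 and 156 TPM in M0 and 146, 138 and 124 TPM in M1. Hspd1 fell without overlap (log2 change -0.25, SE 0.058, adjusted p = 0.0019, limma), and after rescaling 0.11 was not called. Hspe1 overlapped between groups and fell by a small amount (log2 change -0.16, adjusted p = 0.03, limma), and after rescaling it was called in the other direction (0.20, adjusted p = 0.025, limma). The fall was not called without M0 replicate 1, M0 replicate 3 or M1 replicate 3 (adjusted p = 0.069, 0.097 and 0.087), nor the rescaled rise without M0 replicate 2, M1 replicate 1 or M1 replicate 2 (adjusted p = 0.096, 0.095 and 0.072, limma). The annotation places 112 bases of their exons on top of each other.

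The heat shock element, was searched on both strands as the units GAA, TTC and GAA with 2 bases between units, and was in 3 of 7 heat shock promoters and 0.603% of all promoters. The 3 were Hsph1, Hspd1 and Hspe1. The shared region between Hspd1 and Hspe1 holds overlapping matches on both strands, shown here in the direction of Hspe1 because a single stretch serves both genes.
Hspe1, chr1:55088038-55088097, + strand: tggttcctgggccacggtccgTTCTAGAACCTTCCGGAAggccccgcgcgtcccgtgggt

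Ratios of genes within a library do not depend on how libraries are scaled, and they put the arms side by side. Atf4 to Hspa5 was 0.3995, 0.346 and 0.358 in M0 and 0.524, 0.518 and 0.491 in M1. Xbp1 to Hspa5 was 0.145, 0.124 and 0.127 in M0 and 0.0816, 0.0860 and 0.0780 in M1. Relative to BiP, then, Atf4 stood higher and Xbp1 lower in every M1 library. Ppp1r15b to Eif2ak3 went from 3.77 ± 0.0463 to 23.9 ± 1.52, a 6.34-fold higher ratio at the mRNA level. These are the members with the largest rise and the largest fall. PERK is not the only eIF2 kinase, and the mRNA of Eif2ak2, another, rose 3.97-fold to 141 TPM. The ratio therefore does not describe eIF2 kinases in general. Hsp90b1 to Hspa5 went from 0.937 ± 0.0122 to 0.735 ± 0.00314, so these 2 chaperones of the ER lumen did not keep the same proportion. The ratios were chosen after the values were seen and are given without a test.

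**Figure D4:**
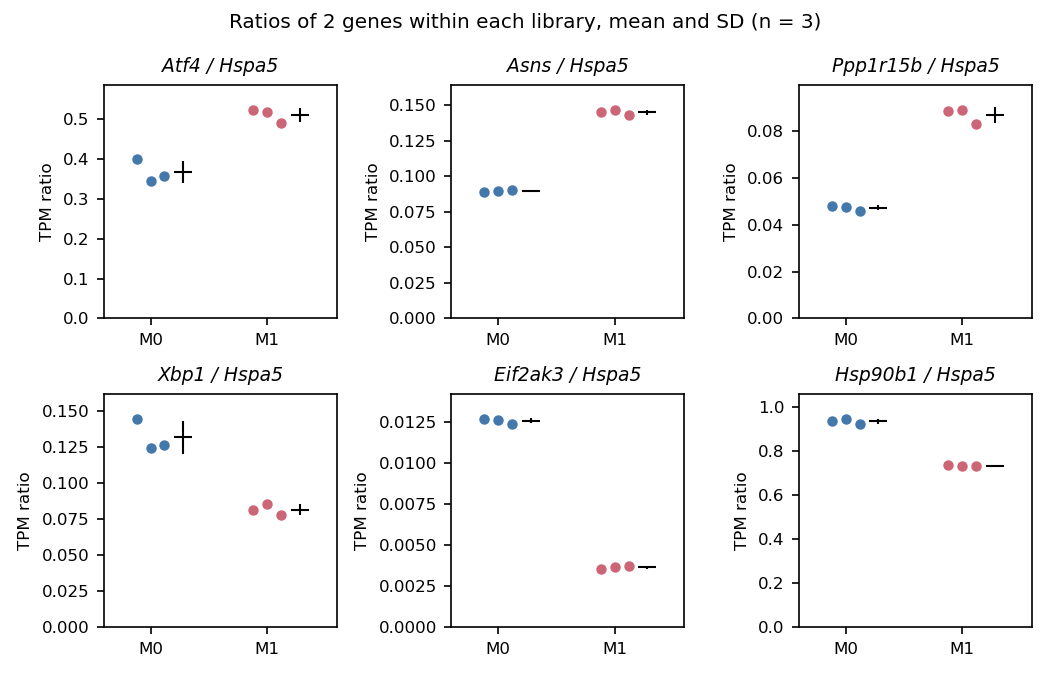
Ratios of the TPM of a gene to that of Hspa5 (vertical axes, from 0) in each library of M0 (blue) and M1 (red), with mean and SD (n = 3) in black. Atf4, Asns and Ppp1r15b are higher relative to Hspa5 in the M1 libraries, and Xbp1, Eif2ak3 and Hsp90b1 are lower, with no overlap in the 6 panels.

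The kinases that share eIF2 with PERK did not move together. In a list of 13 genes of eIF2 kinases, eIF2 and its exchange factor eIF2B, 5 rose and 4 fell, which is 38.5% and 30.8% beside 18.7% and 61.5% of all genes. After rescaling 10 were higher and 1 lower, 76.9% and 7.69% beside 38.1% and 35.4%. Eif2ak2, the RNA-activated kinase PKR and a known interferon target, rose 3.97-fold, from 35.5 ± 2.58 to 141 ± 3.86 TPM (log2 change 1.96, SE 0.056, adjusted p = 6.1e-11; 2.32 after rescaling, limma). Eif2ak4, the amino acid sensor GCN2, fell 2.32-fold, from 9.29 ± 0.616 to 4.01 ± 0.340 TPM (log2 change -1.04, SE 0.077, adjusted p = 2.0e-07; -0.73 after rescaling, limma). Eif2ak1, the haem-regulated kinase, fell from 25.4 ± 0.701 to 19.7 ± 0.982 TPM, with no call after rescaling (-0.004). Eif2s2, the β subunit of eIF2, rose 1.26-fold (0.69 after rescaling). Eif2a, an initiation factor distinct from eIF2, was the most abundant gene of the list without a call on the TPM scale, at 70.2 ± 1.21 and 71.4 ± 2.82 TPM, and was higher after rescaling (0.38, adjusted p = 4.2e-05, limma).

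Other genes tied to ATF4 and CHOP changed widely in both directions. Of 34 tested, 18 rose and 12 fell (52.9% and 35.3%, median log2 change 0.15), against 23 and 5 after rescaling (67.6% and 14.7%, median 0.51), beside the shares of all genes just given. Cebpb, a transcription factor that pairs with ATF4, rose 3.69-fold, from 196 ± 18.6 to 725 ± 50.6 TPM, and the stress-induced cofactor Nupr1 rose 3.32-fold, from 20.5 ± 0.822 to 68.0 ± 4.18 TPM (2.24 and 2.04 after rescaling). Ddit4 (REDD1), an inhibitor of mTORC1, fell 8.46-fold, from 33.7 ± 1.65 to 3.98 ± 0.435 TPM (log2 change -2.80, SE 0.075, adjusted p = 3.4e-11, limma). Sesn1, a relative of Sesn2, fell 5.30-fold, from 18.7 ± 0.753 to 3.53 ± 0.366 TPM (log2 change -2.12, SE 0.075, adjusted p = 3.4e-10, limma). Both stayed lower after rescaling (-2.48 and -1.81). Psat1, of serine synthesis, was the most abundant without a call, at 249 ± 14.6 and 237 ± 11.4 TPM in M0 and M1, and was higher after rescaling (0.29, adjusted p = 3.5e-04, limma).

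Further ER genes mostly fell on the TPM scale, as did most genes. Among 41 other folding and translocation genes 2 rose and 29 fell (4.88% and 70.7%, beside 18.7% and 61.5% of all genes), and after rescaling 17 were higher and 12 lower (41.5% and 29.3%, beside 38.1% and 35.4%). The COPII coat genes Sec23b and Sec24d went apart, Sec23b rising 1.44-fold to 96.5 TPM and Sec24d falling 2.29-fold to 10.6 TPM (0.88 and -0.78 after rescaling). Dnajc1, an ER membrane DNAJ protein, rose 1.55-fold, and Txndc5, a disulfide isomerase, fell 1.91-fold (0.93 and -0.56 after rescaling). Rpn2, a subunit of the oligosaccharyltransferase, had 219 ± 4.54 and 204 ± 8.09 TPM, with no call on the TPM scale and a higher level after rescaling (0.27, adjusted p = 2.3e-04, limma).

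Of 26 other degradation genes 2 rose and 14 fell (7.69% and 53.8%, beside 18.7% and 61.5% of all genes). After rescaling 13 were higher and 3 lower (50.0% and 11.5%, beside 38.1% and 35.4% of all genes). The ubiquitin ligase Rnf139 rose 1.64-fold and Selenos, which recruits the extraction machinery, rose 1.16-fold (1.03 and 0.57 after rescaling). The ligase Rnf5 and the mannosidase Man1b1 fell 1.54-fold and 1.46-fold (-0.26 and -0.17). Aup1, a lipid droplet and ER protein of this pathway, had 157 ± 3.12 and 153 ± 1.15 TPM, without a call on the TPM scale but higher after rescaling (0.33, adjusted p = 5.4e-05, limma). Of 18 partners of IRE1 and ATF6 and related factors, 6 rose and 12 fell (33.3% and 66.7%, beside 18.7% and 61.5% of all genes). After rescaling 7 were higher and 4 lower (38.9% and 22.2%, beside 38.1% and 35.4%). Traf2, the adaptor that links IRE1 to kinase signalling, rose 2.05-fold, while Map3k5, the kinase ASK1 downstream of it, fell 7.80-fold to 0.453 TPM (1.31 and -1.44 after rescaling). The fitted log2 change of Map3k5 before rescaling was -1.64, which the 1 TPM added to each value understates at this level. In the authors' deposited table it was -2.58. Tmbim6, an inhibitor of cell death in the ER membrane, rose 1.37-fold, and the translocon protein Tram1 fell 1.82-fold (0.82 and -0.50).

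Outside the ER, the cofactors of HSP70 and HSP90 and other cytosolic chaperones went in both directions. In the list of 36 tested HSF1 targets and cytosolic chaperones 6 rose and 13 fell (16.7% and 36.1%, beside 18.7% and 61.5% of all genes). After rescaling 26 were higher and 5 lower (72.2% and 13.9%, beside 38.1% and 35.4%), and the median log2 change was -0.01 on the TPM scale and 0.34 rescaled. Hspa4l, an exchange factor of the HSP110 type, rose 2.21-fold and the HSP40 Dnaja2 rose 1.99-fold to 204 TPM (1.38 and 1.35 after rescaling), against the fall of Dnajb1. Bag2, a cochaperone of HSP70, and Fkbp5, a cochaperone of HSP90 in steroid receptor complexes, fell 3.88-fold and 2.96-fold (-1.47 and -1.17 after rescaling). Cct5, a subunit of the chaperonin TRiC, had 423 ± 13.4 and 438 ± 0.296 TPM, with no call on the TPM scale and a higher level after rescaling (0.41, adjusted p = 1.2e-05, limma).

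Of 16 mitochondrial chaperones and proteases, 1 rose and 11 fell (6.25% and 68.8%, beside 18.7% and 61.5% of all genes). After rescaling 8 were higher and 3 lower (50.0% and 18.8%, beside 38.1% and 35.4%). The share that fell was near that of all genes. Trap1, the mitochondrial HSP90, rose 1.11-fold (0.51 after rescaling). The protease Lonp1 and the iron-sulfur cochaperone Hscb fell 1.59-fold and 1.73-fold (-0.30 and -0.40). Hspa9, the mitochondrial HSP70, was at 169 ± 13.7 and 155 ± 9.33 TPM, not called on the TPM scale and higher after rescaling (0.24, adjusted p = 0.0032, limma). All genes named as rising in these lists were also called higher after rescaling, but so were all 2111 genes that rose. Those named as falling were also called lower, except Eif2ak1, beside 4002 of the 6944 genes that fell. They were picked as the largest falls of their lists, so this too adds no support.

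**Figure D5:**
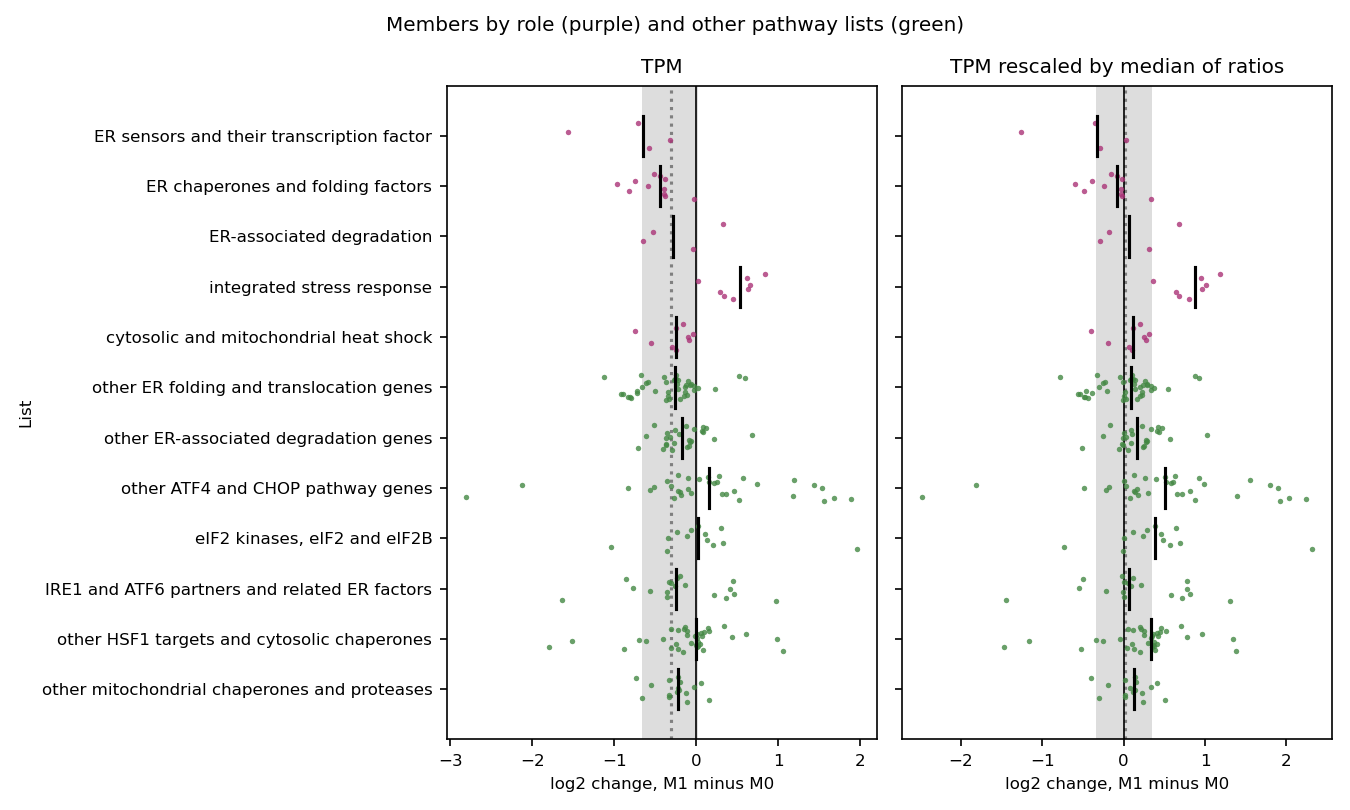
Log2 change of each tested gene (points) by list, for the members' roles (purple) and the other lists (green), on the TPM scale (left) and after rescaling (right). Short black lines are list medians, the dotted line is the median of all tested genes and the grey band their interquartile range; the integrated stress response has the highest median on both scales, 0.53 and 0.88.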

How the data were processed

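RNA of 6 libraries (3 M0, 3 M1) was analysed from 2 tables that the authors deposited. One holds TPM per gene, per the file headers. The other holds the authors' comparison of M1 with M0: a log2 fold change, a p-value and the adjusted p-value, per the file headers, of which the first and last were used. Per the submitters' processing notes, DESeq2, STAR 2.7.5a, HOMER 4.11.1, bcl2fastq and the build mm10 were used, with no role or order given. The sources used here do not say how strand and reads with several matches were treated. TPM summed to 551257 to 572349 per library over the genes of the table, less than a full TPM total. TPM times transcript length came out as whole reads, within 0.1 of a read, for 99.8% to 99.99% of values above 0, which gave the reads quoted. Counting error is only part of their spread between libraries.

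Genes reaching 1 TPM in 3 or more libraries were fitted with limma 3.58.1 (R 4.3.3; trend and robust empirical Bayes) on log2(TPM + 1), which understates changes of low genes, with group as the only term and Benjamini-Hochberg adjustment over all 11297. The smallest p of an exact permutation test of 3 against 3 is 0.10, so none was run. Rescaled values are TPM divided by median-of-ratios factors over genes above 0 in every library. The fit was tested on simulated data in which 200 genes changed, as many up as down. The simulation had no shift of TPM towards risen genes like that between M0 and M1, so it does not bear on the choice of scale. Members and lists were chosen with earlier results of these data known. All members are named; from each other list, those called with the 2 largest rises and falls and the most abundant one not called, passing over genes under 2 TPM. Alternatives are described in the closing section. Protein sequences were not analysed here. Coordinates are those of the deposited table, whose gene starts equalled RefSeq GRCm38.p6 for 32 of the 38 members, so they count from 1. Overlapping exons are from GENCODE vM21 and promoters from RefSeq, on the same build.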

Additional observations from a re-analysis of the deposited data

How the results depend on the processing

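The scale of the TPM columns was the choice that moved most. After rescaling, all genes called numbered 4305 higher and 4002 lower, against 2111 and 6944 on TPM, and members 15 and 11, against 8 and 22. The sign of 10 members turned: Atf6 (0.033), Hspa5 (0.33), Herpud1 (0.32), Hsf1 (0.098), Hspa8 (0.064), Hsp90aa1 (0.27), Hsp90ab1 (0.26), Dnaja1 (0.32), Hspd1 (0.11) and Hspe1 (0.20), and that of Rpn2 (0.27), Aup1 (0.33), Psat1 (0.29) and Hspa9 (0.24). Rescaling adds the same log2 shift to nearly every gene by its construction. Under the other 13 settings (pseudocounts of 0.1 and 0.5 TPM, no filter or 5 TPM, limma without trend and robust fitting, limma-voom on recovered reads, the replicate block, each library left out), 8 members rose and 21 to 24 fell. Leaving out each library gave 1825 to 2067 genes higher and 6251 to 6998 lower. Herpud1 turned without M1 replicate 1 (0.002; range over left-out libraries -0.068 to 0.002), and Sesn2 without M0 replicate 1 or M1 replicate 3 (-0.027 and -0.024; range -0.027 to 0.081); neither was called. Hspe1 lost its call without M0 replicate 1, M0 replicate 3 or M1 replicate 3, without a filter and without trend and robust fitting (adjusted p = 0.067 to 0.097, limma). Hsp90ab1 was called lower without M0 replicate 1 or M1 replicate 3 and by limma-voom (-0.13 to -0.16), and Hsp90aa1 without M0 replicate 1 and by limma-voom (-0.13 and -0.11). On rescaled TPM, a check added after the data were seen, leaving out each library gave 14 to 15 members higher and 10 to 12 lower. Values near 0 turned for Atf6 without M1 replicate 3 (range -0.043 to 0.077), Hsp90b1 without M0 replicate 2 (range -0.043 to 0.003), Hyou1 without M0 replicate 2 or M1 replicate 1 (range -0.094 to 0.013) and Pdia6 without M1 replicate 3 (range -0.029 to 0.019). There, calls were lost for Creld2 without M0 replicate 3, Hsph1 without M1 replicate 1 and Hspe1 without M0 replicate 2, M1 replicate 1 or M1 replicate 2, and Sel1l was called lower without M0 replicate 1 or M1 replicate 3. Deviations from the group means correlated at 0.071, -0.076 and 0.037 between libraries with the same replicate number, and at -0.179 to 0.152 between the others. With 3 libraries per group these values cannot decide whether the numbers pair libraries, and the labels do not say. With the replicate block 8 members rose and 22 fell, with 2143 genes higher and 7016 lower, and after rescaling Sel1l passed the threshold with it (adjusted p = 0.018, limma). Hspa1a and Hspa1b, with 40 reads or fewer over a group, were not tested.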
